A study of Homo sapiens with 18 samples.

Results

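The constitutive proteasome genes were examined in the clear cell kidney cancer line 786-O. They were taken as every row whose symbol starts with PSMA, PSMB, PSMC, PSMD, PSME, PSMF or PSMG, except the immunoproteasome genes PSMB8, PSMB9 and PSMB10. The rule found 43 genes among the 13141 in the table: 6 alpha and 7 beta subunits of the 20S core, 6 ATPases and 11 other subunits of the 19S cap, 7 assembly factors, 5 activators and inhibitor, and PSMC3IP. PSMA7, PSMA8 and PSMB11 have no row, and PSMC3IP, a factor of homologous recombination named after a cap subunit, is no part of the proteasome.

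The study asked how loss of the chromatin regulators PBRM1 or KDM5C changes the transcriptome of cells that lack or carry the tumour suppressor VHL. The paper describes the VHL comparison as re-expression of VHL, and the labels VHL+/+ and VHL-/- are called genotypes below. RNA of 6 groups, 3 arrays each, was hybridised to Illumina HumanHT-12 V4 bead arrays: VHL-/- cells with scramble shRNA, with PBRM1 shRNA or with KDM5C shRNA, and VHL+/+ cells with the same 3 shRNAs. All groups share the 786-O background and a stable shRNA, scramble being the control, and each target was suppressed with 1 construct, so 1 cell line and 1 construct per target limit what a group can stand for. In the labels a tag spelled ChIP is 1 for replicates 1 and 2 of each group and 2 for replicate 3. It was read here as the number of the bead chip, and the chip cannot be told apart from any other batch that replicate 3 shares.

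The deposited values are log2 signals per gene, and a difference of 0.58 on this scale is a fold change of 1.5. PBRM1 lay between 7.02 and 7.51 in all 6 arrays with PBRM1 shRNA and the 6 with scramble shRNA, and its difference was -0.06 in VHL-/- cells (adjusted p = 0.864 from limma) and -0.15 in VHL+/+ cells (adjusted p = 0.639). The knockdown was therefore not visible in this row, KDM5C has no row, and on these arrays the groups rest on the labels. Beyond the arrays, the paper reports western blots of 786-O cells with PBRM1 or KDM5C suppressed by shRNA. It also reports RT-PCR of selected genes with further constructs. The VHL row lay between 7.64 and 8.16 over all arrays of both genotypes, and its difference between the genotypes is not given here. Of the renal epithelial markers, 6 of 7 had a row, and PAX2 had none. VIM (mean signal 13.94), NNMT (10.54) and KRT8 (9.84) were high, while KRT18 (7.31) lay below the median of all genes (7.65). Of the markers of other cell types only PECAM1 had a row, between 6.57 and 6.94 over all arrays, where the table starts at 6.27. Nothing in the labels says that replicates came from separate cultures, so the p-values measure the spread between these arrays, which may be technical.

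The proteasome degrades proteins that carry ubiquitin chains. Its 20S core is a barrel of alpha and beta rings with the cutting sites of PSMB5, PSMB6 and PSMB7 inside, and the 19S cap binds the chain, removes it, and threads the protein into the barrel with a ring of ATPases. Dedicated chaperones build core and cap, the PA28 ring of PSME1 and PSME2 is an alternative cap, and interferon raises PA28 together with the immunoproteasome subunits. VHL is itself the substrate receptor of a ubiquitin ligase that sends hypoxia-inducible factors to the proteasome.

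Across the groups large changes were rare among these genes, and PSME2 was the 1 member past a fold change of 1.5. The median absolute difference over the 7 contrasts below was 0.124 for members and 0.088 for all genes. Mean signals of members lay between percentiles 48.1 (PSMC3IP) and 99.1 (PSMB1) of all genes. This comparison with all genes, and those below, were not matched for signal. Over 7 contrasts (each shRNA against scramble shRNA in each genotype, and VHL+/+ against VHL-/- cells with each shRNA) there were 301 pairs of member and contrast. In 8 of these the adjusted p was under 0.05 in limma with Benjamini-Hochberg adjustment over all genes, hereafter "passed", and in 1 the fold was also at least 1.5, hereafter "called". The 95% interval of the difference lay inside a 1.5-fold change either way in 286 pairs, and in all 7 contrasts for 34 members. Such intervals were not counted over all genes, so here and below these counts do not set members apart from other genes. The 6 group means of a member spanned a median of 0.29, from 0.12 for the alpha subunit PSMA1 to 0.61 for PSME2, against a median of 0.23 for all genes. That span reached 1.5-fold in 1 of 43 members (2.33%) and in 7.03% of all genes. The arrays of a group differed by a median SD of 0.16 among members and 0.13 among all genes.

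By contrast, the counts were as follows. With PBRM1 shRNA in VHL-/- cells 2 of 43 members passed (5.43% of all genes did) and 1 was called (1.81% of all genes). With PBRM1 shRNA in VHL+/+ cells 1 member passed (2.49%) and none was called (0.944%). In VHL-/- and VHL+/+ cells 11 and 7 members had an unadjusted p under 0.05 in limma, beside 2381 and 2007 of 13141 genes. With KDM5C shRNA 1 member passed in VHL-/- cells (4.78%) and 1 in VHL+/+ cells (4.19%). None of these was called in limma, where 1.46% and 1.14% of all genes were. In the same order 9 and 8 members had an unadjusted p under 0.05 in limma, beside 2301 and 2414 of 13141 genes. Between the genotypes 1 member passed with scramble shRNA (3.2%) and 2 passed with PBRM1 shRNA (2.37%). With KDM5C shRNA none passed in limma (2.77%), where 2 members had an unadjusted p under 0.05. No member was called between the genotypes, where 1.03%, 1.02% and 0.89% of all genes were, in the same order. An unadjusted p under 0.05 in limma was reached by 8, 8 and 2 members, beside 2050, 1770 and 1953 of 13141 genes. The contrasts with scramble shRNA share arrays: both shRNA contrasts in a genotype use its 3 scramble arrays, and the genotype contrast with scramble shRNA uses those of both.

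**Figure D1:**
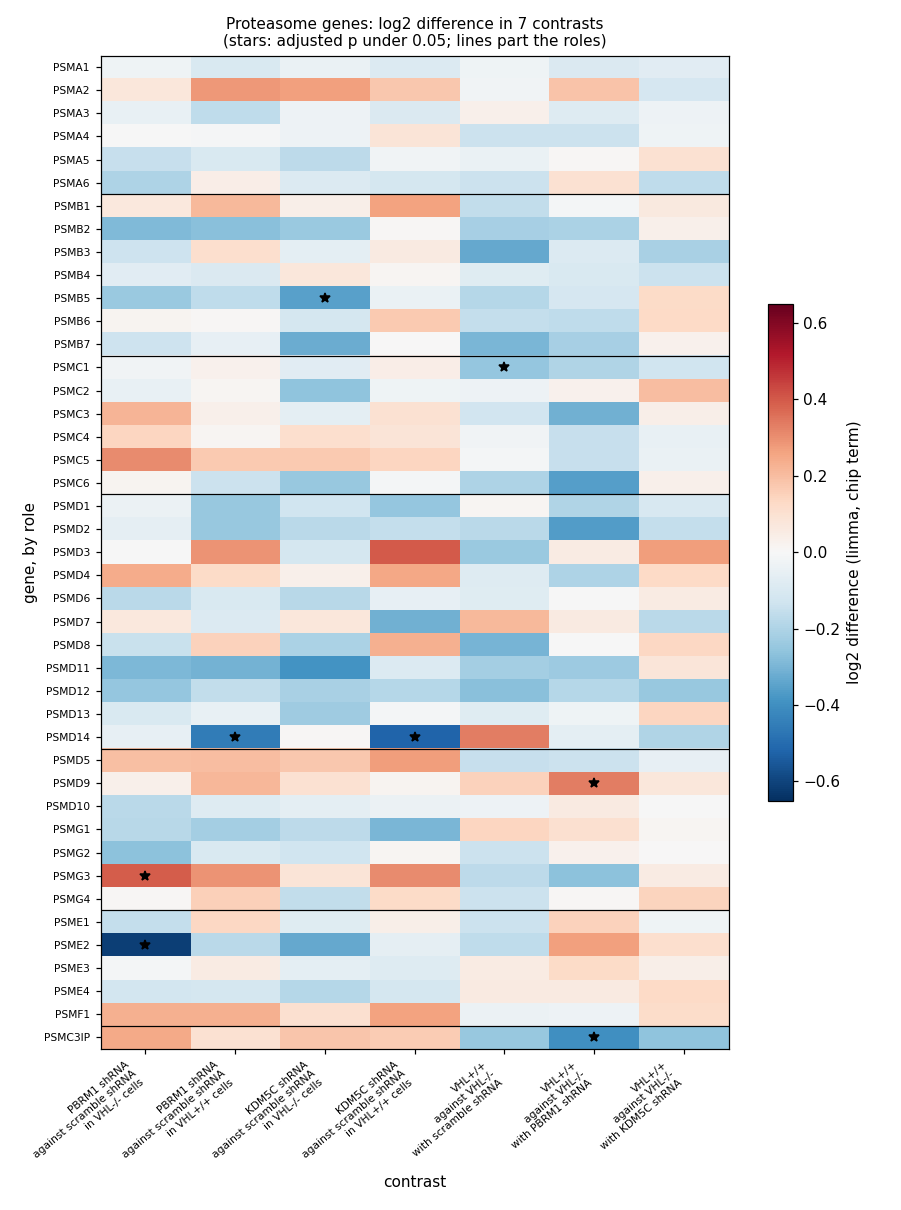
Log2 differences of the 43 genes (rows, parted by role) in 7 contrasts (columns), with stars where the adjusted p from limma was under 0.05. The stars mark 8 of 301 cells, and the darkest cell is PSME2 with PBRM1 shRNA in VHL-/- cells, at -0.61.

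Among the 13 core subunits 1 passed in 1 contrast. PSMB5, the subunit with the chymotrypsin-like site and the main target of proteasome inhibitor drugs, had log2 signals of 11.30, 11.46 and 11.05 in VHL-/- cells with scramble shRNA and 11.08, 11.03 and 10.64 with KDM5C shRNA. The groups overlapped by 1 array, since replicate 3, on chip 2, was the lowest of both. PSMB5 fell by 0.35 (SE 0.10, adjusted p = 0.0434 from limma). PSMB5 failed to pass in 5 of 8 alternative fits (adjusted p 0.0532 to 0.138 from limma). With 1 array left out it failed in 10 of 18 fits (0.0505 to 0.196). Those arrays were VHL-/- scramble replicates 1 and 2, VHL-/- KDM5C shRNA replicates 2 and 3, VHL-/- PBRM1 shRNA replicate 1, VHL+/+ scramble replicates 1, 2 and 3, VHL+/+ PBRM1 shRNA replicate 2 and VHL+/+ KDM5C shRNA replicate 1.

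In the remaining groups PSMB5 lay close together. Its signals were 11.06, 10.99 and 11.02 in VHL-/- cells with PBRM1 shRNA, 11.08, 11.15 and 11.01 in VHL+/+ cells with scramble shRNA, 10.83, 11.03 and 10.89 with PBRM1 shRNA, and 11.07, 10.99 and 11.07 with KDM5C shRNA. The KDM5C shRNA difference in VHL+/+ cells was -0.04 (adjusted p = 0.871), and the difference between the genotypes was 0.31 (95% interval 0.03 to 0.60, adjusted p = 0.581 from limma), so a difference between the genotypes was not shown.

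The other catalytic subunits did not pass in any contrast. PSMB7, which cuts after basic residues, had 13.06, 13.12 and 12.69 in VHL-/- cells with scramble shRNA and 12.69, 12.61 and 12.59 with KDM5C shRNA. The groups met at 12.69, with the remaining arrays apart, and the difference was -0.32 (adjusted p = 0.0930 from limma; 0.0349 without VHL+/+ KDM5C shRNA replicate 1). It lay at 12.81, 13.00 and 12.65 with PBRM1 shRNA in these cells, and in VHL+/+ cells at 12.74, 12.65 and 12.58 with scramble shRNA, 12.66, 12.57 and 12.58 with PBRM1 shRNA, and 12.99, 12.60 and 12.38 with KDM5C shRNA. With scramble shRNA the VHL+/+ arrays averaged 0.30 below the VHL-/- arrays (12.66 against 12.95), with an adjusted p of 0.151 from limma.

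PSMB6, which cuts after acidic residues, varied least of the catalytic subunits, with a span of group means of 0.17. In VHL-/- cells its signals were 12.65, 12.58 and 12.57 with scramble shRNA, 12.74, 12.53 and 12.58 with PBRM1 shRNA, and 12.73, 12.29 and 12.43 with KDM5C shRNA. In VHL+/+ cells they were 12.43, 12.53 and 12.38, then 12.50, 12.57 and 12.29, then 12.70, 12.73 and 12.41, in the same order. The shRNA groups of a genotype overlapped. With scramble shRNA the VHL-/- arrays lay just above the VHL+/+ arrays (difference of the means -0.15, adjusted p = 0.508 from limma).

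The remaining core subunits are structural. All 13 core subunits had intervals inside 1.5-fold in each of the 7 contrasts. The alpha subunit PSMA2 had the highest core values with PBRM1 shRNA in VHL+/+ cells (0.28) and with KDM5C shRNA in VHL-/- cells (0.27), and the beta subunit PSMB2 had the lowest with PBRM1 shRNA in either genotype (-0.29 in VHL-/- and -0.27 in VHL+/+ cells). Between the genotypes with scramble shRNA all 7 beta subunits had lower means in VHL+/+ cells, from -0.08 for PSMB4 to -0.33 for PSMB3. None of these 7 passed, and 2 had an unadjusted p under 0.05 in limma, beside 2050 of 13141 genes.

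Of the 17 cap subunits, PSMD14 passed in 2 contrasts and PSMC1 in 1. PSMD14 is the metalloprotease of the lid that cuts off the ubiquitin chain. Its signals in VHL+/+ cells were 11.93, 11.51 and 11.45 with scramble shRNA, 11.31, 11.13 and 11.08 with PBRM1 shRNA, and 11.10, 11.16 and 11.06 with KDM5C shRNA. The scramble arrays lay above all 6 knockdown arrays, and replicate 1 of the scramble group stood highest. PSMD14 fell by 0.45 with PBRM1 shRNA (SE 0.11, adjusted p = 0.0315) and by 0.52 with KDM5C shRNA (SE 0.11, adjusted p = 0.0121 from limma), both measured against the same 3 scramble arrays.

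In VHL-/- cells PSMD14 had 11.32, 11.18 and 11.38 with scramble shRNA, 11.21, 11.27 and 11.24 with PBRM1 shRNA, and 11.45, 11.37 and 11.08 with KDM5C shRNA. These 3 groups overlapped, with differences of -0.05 for PBRM1 shRNA (adjusted p = 0.873) and 0.01 for KDM5C shRNA (adjusted p = 0.983). The test of the difference between genotypes gave -0.40 for PBRM1 shRNA (95% interval -0.72 to -0.08, adjusted p = 1.00) and -0.53 for KDM5C shRNA (-0.85 to -0.21, adjusted p = 0.387 from limma), so the effect of neither shRNA was shown to depend on VHL. With scramble shRNA the VHL+/+ arrays lay 0.33 above the VHL-/- arrays (adjusted p = 0.110).

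Without replicate 1 of the VHL+/+ scramble group, the PSMD14 differences were -0.32 with PBRM1 shRNA (adjusted p = 0.159) and -0.39 with KDM5C shRNA (adjusted p = 0.0649). The KDM5C shRNA difference passed in all 8 alternative fits and in the 17 other fits with 1 array left out. The PBRM1 shRNA difference failed to pass in 3 alternative fits (adjusted p 0.0828 to 0.101 from limma). It also failed without VHL+/+ scramble replicate 3 or VHL+/+ PBRM1 shRNA replicates 2 or 3 (0.0507, 0.156 and 0.116).

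PSMC1 is an ATPase of the ring that opens the gate of the core. With scramble shRNA its signals were 11.97, 11.85 and 11.88 in VHL-/- cells and 11.64, 11.64 and 11.66 in VHL+/+ cells, a fall of 0.25 (SE 0.06, adjusted p = 0.0280 from limma). With PBRM1 shRNA they were 11.93, 11.84 and 11.86 against 11.67, 11.75 and 11.62, and with KDM5C shRNA 11.85, 11.83 and 11.79 against 11.73, 11.68 and 11.67. All 9 VHL-/- arrays, from 11.79 to 11.97, thus lay above all 9 VHL+/+ arrays, from 11.62 to 11.75.

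PSMC1 was the 1 member of 43 without overlap between the genotypes over all arrays, where 0.868% of all genes (114) had none; this comparison was made after its values had been seen. The differences of -0.20 with PBRM1 shRNA (adjusted p = 0.104) and -0.13 with KDM5C shRNA (adjusted p = 0.305) did not pass. The difference with scramble shRNA failed to pass in 4 of 8 alternative fits (adjusted p 0.0554 to 0.147 from limma). It also failed without VHL+/+ scramble replicates 1 or 2 or VHL-/- scramble replicates 1 or 3 (0.0811 to 0.136).

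The other 15 cap subunits passed in none of the 7 contrasts, although PSMD4, PSMD7, PSMD11, PSMC5 and PSMC6 did in some alternative fit. PSMD7 differed by -0.31 with KDM5C shRNA in VHL+/+ cells (adjusted p = 0.0541 from limma) and passed with the replicate block (0.0398), with cyclic loess (0.0493) and without VHL-/- KDM5C shRNA replicates 1 (0.0365) or 2 (0.0450). The lid subunit PSMD11 had 8.12, 8.47 and 8.10 in VHL-/- cells with scramble shRNA and 8.04, 7.87 and 7.63 with KDM5C shRNA, so that all 3 knockdown arrays were lower (difference -0.39, adjusted p = 0.0808 from limma). PSMD11 passed when VHL+/+ PBRM1 shRNA replicate 1 (adjusted p = 0.0214) or 2 (0.0345) was left out. Its interval, -0.64 to -0.13, reached past 1.5-fold. With PBRM1 shRNA in VHL+/+ cells PSMD11 differed by -0.31 (adjusted p = 0.225), and by -0.48 (adjusted p = 0.0194) without replicate 1 of that group. The ubiquitin receptor PSMD4 differed by 0.24 with PBRM1 shRNA in VHL-/- cells (adjusted p = 0.169 from limma), and by 0.36 (adjusted p = 0.0249) without replicate 3 of that group. PSMD3, another lid subunit, had the widest intervals: its difference with KDM5C shRNA in VHL+/+ cells was 0.40 (0.04 to 0.76, adjusted p = 0.217), from 8.42, 7.72 and 8.28 to 8.81, 8.42 and 8.39, where the groups overlapped.

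With PBRM1 shRNA the ATPase PSMC6 differed by -0.36 between the genotypes (adjusted p = 0.0517) and the large cap subunit PSMD2, a scaffold for ubiquitin receptors, also by -0.36 (95% interval -0.66 to -0.07, adjusted p = 0.229 from limma). PSMC6 passed without VHL-/- scramble replicates 1 or 3 or VHL-/- KDM5C shRNA replicates 1 or 3 (adjusted p 0.0311 to 0.0453). Replicate 3 of PSMD2, on chip 2, was below replicate 1 in all 6 groups. The ATPase PSMC5 had the highest cap value with PBRM1 shRNA in VHL-/- cells, 0.31 (adjusted p = 0.0648 from limma), and passed with only the arrays of the contrast (0.0441) or without VHL+/+ PBRM1 shRNA replicates 1 or 2 (0.0312 and 0.0338).

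**Figure D2:**
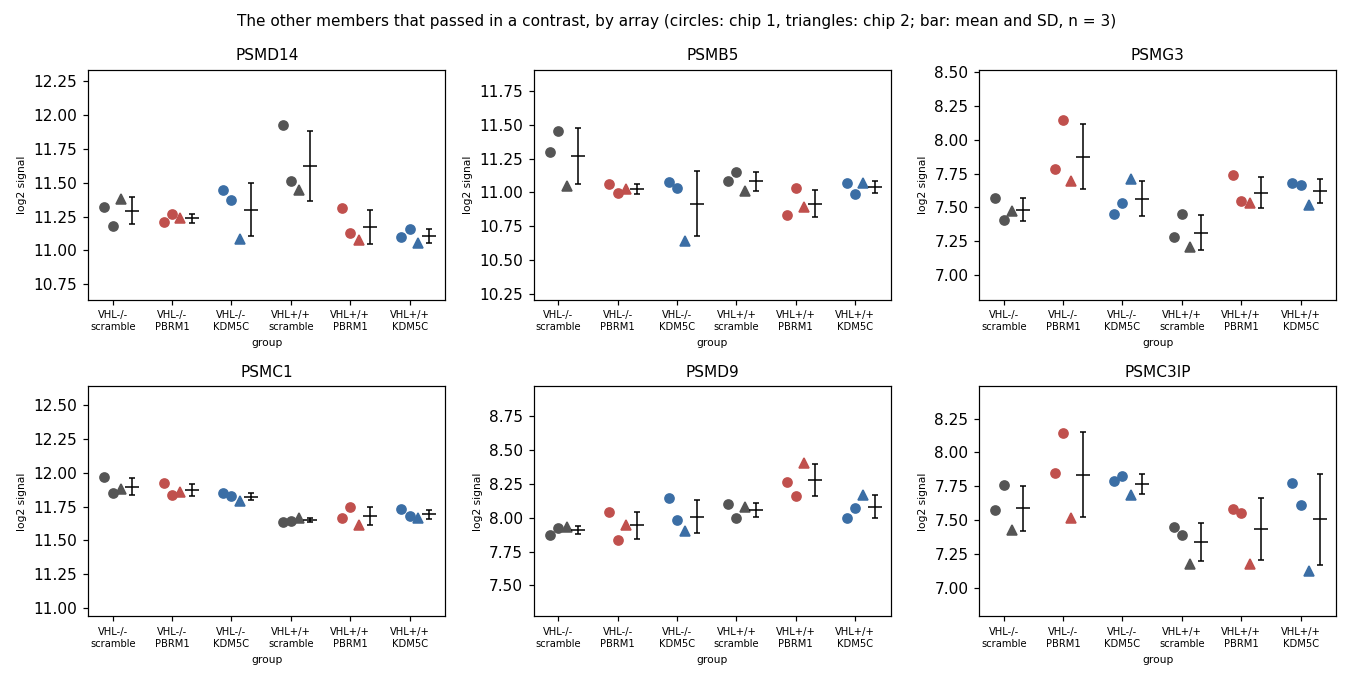
Log2 signal (y axis) of 6 genes in each array, by group (x axis), with circles for chip 1, triangles for chip 2 and bars for the mean and SD of 3 arrays. PSMD14 is highest in the VHL+/+ scramble group, with 1 array at 11.93, and PSMC1 separates the VHL-/- arrays from the VHL+/+ arrays in every shRNA group.

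Among the 7 assembly factors PSMG3 and PSMD9 passed, each in 1 contrast. PSMG3 pairs with PSMG4 to seat the first alpha subunits of the core. Its signals in VHL-/- cells were 7.57, 7.40 and 7.48 with scramble shRNA, 7.79, 8.15 and 7.69 with PBRM1 shRNA, and 7.45, 7.53 and 7.71 with KDM5C shRNA. The PBRM1 shRNA arrays lay above the scramble arrays, and PSMG3 rose by 0.39 (SE 0.11, adjusted p = 0.0413 from limma).

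In VHL+/+ cells PSMG3 had 7.29, 7.45 and 7.21 with scramble shRNA, 7.74, 7.55 and 7.53 with PBRM1 shRNA, and 7.68, 7.67 and 7.52 with KDM5C shRNA. Both knockdown groups lay above the scramble arrays, with differences of 0.29 (adjusted p = 0.180) and 0.31 (adjusted p = 0.126). Its partner PSMG4 differed by 0.01 with PBRM1 shRNA in VHL-/- cells (adjusted p = 0.987 from limma).

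The PSMG3 difference with PBRM1 shRNA in VHL-/- cells failed to pass in 4 of 8 alternative fits (adjusted p 0.0522 to 0.0861 from limma). With 1 array left out it failed in 9 of 18 fits (0.0512 to 0.219). Those arrays were VHL-/- scramble replicates 1, 2 and 3, VHL-/- PBRM1 shRNA replicate 2, VHL+/+ scramble replicates 1 and 3, VHL+/+ PBRM1 shRNA replicate 3 and VHL+/+ KDM5C shRNA replicates 2 and 3. Without VHL-/- PBRM1 shRNA replicate 2, the highest array, the difference was 0.26 in place of 0.39.

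PSMD9, a chaperone of the ATPase ring, had 8.04, 7.84 and 7.95 in VHL-/- cells and 8.27, 8.16 and 8.40 in VHL+/+ cells with PBRM1 shRNA. The groups did not overlap, and PSMD9 rose by 0.33 (SE 0.08, adjusted p = 0.0368 from limma). With scramble shRNA it had 7.87, 7.92 and 7.93 against 8.10, 8.00 and 8.08 (difference 0.15, adjusted p = 0.411), and with KDM5C shRNA 8.14, 7.98 and 7.90 against 8.00, 8.07 and 8.17, which overlapped (0.07, adjusted p = 0.770). The difference with PBRM1 shRNA failed to pass in 4 of 8 alternative fits (adjusted p 0.0612 to 0.280 from limma). With 1 array left out it failed in 9 of 18 fits (0.0505 to 0.227). Those arrays were VHL-/- scramble replicates 1, 2 and 3, VHL-/- PBRM1 shRNA replicates 2 and 3 and VHL+/+ scramble replicate 3. The others were VHL+/+ PBRM1 shRNA replicates 1 and 3 and VHL+/+ KDM5C shRNA replicate 2.

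The 5 activators and inhibitor hold the called member. PSME2, the beta subunit of PA28, had log2 signals of 11.45, 11.18 and 11.48 in VHL-/- cells with scramble shRNA, 10.78, 10.49 and 11.02 with PBRM1 shRNA, and 10.92, 11.42 and 10.77 with KDM5C shRNA. All PBRM1 shRNA arrays lay below all scramble arrays, while the KDM5C shRNA group had 1 array at the scramble level and 2 below it. PSME2 fell by 0.61 with PBRM1 shRNA, a 1.53-fold decrease (SE 0.15, adjusted p = 0.0274 from limma).

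For KDM5C shRNA the PSME2 difference was -0.33 (adjusted p = 0.278), and without replicate 2 of that group it was -0.54 (adjusted p = 0.0343). The test between the shRNAs in VHL-/- cells gave -0.28 for PBRM1 against KDM5C (95% interval -0.61 to 0.05, adjusted p = 0.907 from limma), so the response was not shown to be particular to PBRM1 shRNA. Within chip 1 the PBRM1 shRNA difference was -0.68, and on chip 2, with 1 array per group, -0.46.

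In VHL+/+ cells PSME2 had 11.08, 11.16 and 11.38 with scramble shRNA, 11.10, 11.08 and 10.90 with PBRM1 shRNA, and 11.01, 11.20 and 11.24 with KDM5C shRNA. These groups overlapped, with differences of -0.18 (adjusted p = 0.675) and -0.06 (adjusted p = 0.889). The PBRM1 shRNA difference changed by 0.43 between the genotypes (95% interval -0.03 to 0.90, adjusted p = 1.00 from limma), which does not show that it depended on VHL. The PSME2 call in VHL-/- cells was lost without the chip term (adjusted p = 0.0524) and without VHL-/- scramble replicates 1 or 3 (0.115 and 0.104) or VHL-/- PBRM1 shRNA replicates 1 or 2 (0.0704 and 0.151).

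PSME1, the alpha subunit of PA28, did not pass in any contrast. In VHL-/- cells it had 10.75, 10.86 and 11.03 with scramble shRNA, 10.60, 10.78 and 10.78 with PBRM1 shRNA, and 10.75, 10.48 and 11.17 with KDM5C shRNA. In VHL+/+ cells it had 10.65, 10.54 and 11.03, then 10.60, 10.73 and 11.30, then 10.79, 10.57 and 10.96, in the same order. The array of chip 2 was the highest of its group in 5 of 6 groups and equal to replicate 2 in the VHL-/- PBRM1 shRNA group, and all groups overlapped.

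With PBRM1 shRNA in VHL-/- cells PSME1 differed by -0.16 (95% interval -0.40 to 0.08, adjusted p = 0.537 from limma). Its differences in the other contrasts lay between -0.14 and 0.15. The spread of PSME1 within groups (SD 0.26) was larger than the span of its group means (0.16), unlike PSME2 (0.21 and 0.61).

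**Figure D3:**
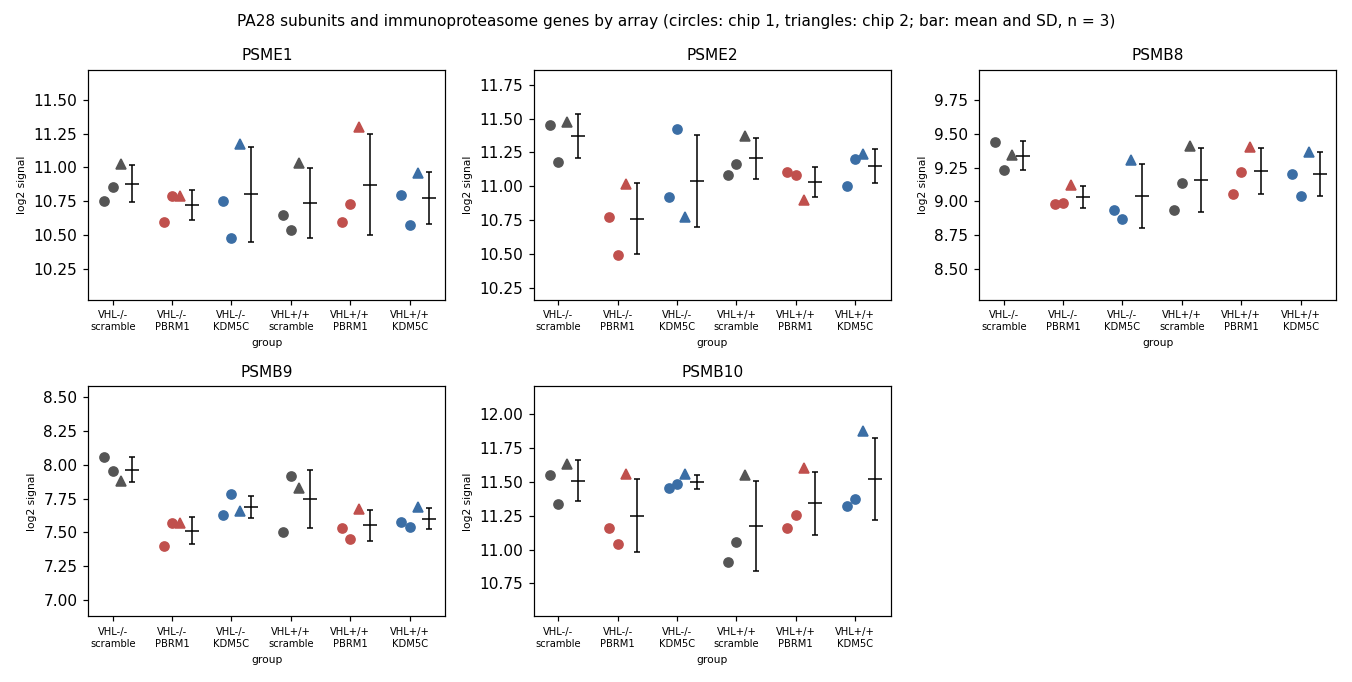
Log2 signal (y axis) of the PA28 subunits PSME1 and PSME2 and of the immunoproteasome genes PSMB8, PSMB9 and PSMB10 in each array, by group (x axis), with circles for chip 1, triangles for chip 2 and bars for the mean and SD of 3 arrays. PSME2, PSMB8 and PSMB9 are lower in all 3 VHL-/- arrays with PBRM1 shRNA than in the 3 with scramble shRNA, and PSME1 and PSMB10 show no such gap.

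The immunoproteasome genes, which are no members, gave a neighbouring readout on the same arrays. PSMB9 fell with PBRM1 shRNA in VHL-/- cells from 8.06, 7.95 and 7.88 to 7.40, 7.57 and 7.57, without overlap (-0.45, adjusted p = 0.0110 from limma). PSMB8 also had no overlap there, with a difference of -0.31 (adjusted p = 0.0692), and PSMB10 by -0.26 (adjusted p = 0.160). Of 11 immunoproteasome and antigen processing genes with a row (NLRC5 had none), 4 passed in that contrast, all lower, where 5.43% of all genes passed. Among these 4 were PSMB9, the peptide transporter TAP1 (-0.90) and the interferon transcription factor IRF1 (-0.47). In all, 10 of the 11 had values below 0, and their median was -0.27 beside -0.05 for the 43 proteasome genes and 0.00 for all genes. With KDM5C shRNA in VHL-/- cells, against the same scramble arrays, 10 of 11 were also below 0, with a median of -0.24, and 2 passed, TAP1 among them (-0.77, adjusted p = 0.000504 from limma), where 4.78% of all genes did. Between PBRM1 and KDM5C shRNA in VHL-/- cells 0 of 11 passed in limma (0.0% of all genes). Of the 11, 2 had an unadjusted p under 0.05 in limma, beside 707 of 13141 genes. In VHL+/+ cells 7 of 11 were below 0 with each shRNA, with medians of -0.14 (PBRM1) and -0.12 (KDM5C). There TAP1 alone passed, at -0.65 with PBRM1 shRNA (2.49% of all genes did) and -0.50 with KDM5C shRNA (4.19%). PSMB10 had the highest values, 0.17 and 0.35. The difference of the effect between genotypes passed for 0 of 11 with either shRNA (0.0% of all genes).

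PSME1, PSME2, PSMB8, PSMB10 and the assembly factor PSMG4 share a word near their starts. The core of the interferon-stimulated response element (ISRE) was searched on both strands as GAAANNGAAA in the promoters of RefSeq, GRCh38.p14, from 250 bases before to 50 bases after each gene start. Of 47 promoters of 38 members, 5 held it (10.6%), against 3.57% of all 35116 promoters, and 5 members had no promoter in the table. The 250 bases before PSME2 are shown because PSME2 is the called member, on the minus strand at chr14:24146611-24146860, with the ISRE match in capitals.
PSME2: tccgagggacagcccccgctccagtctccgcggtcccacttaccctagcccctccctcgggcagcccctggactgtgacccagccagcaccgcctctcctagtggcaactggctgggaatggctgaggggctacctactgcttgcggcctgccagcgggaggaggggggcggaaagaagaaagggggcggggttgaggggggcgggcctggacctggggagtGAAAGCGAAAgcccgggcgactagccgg

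Windows of 30 bases around every match among the members are set side by side with those of PSMB8 and PSMB10, 5′ to 3′ on the strand of the gene and with the match in capitals, to show which of them share the same word. PSME1 is on the plus strand at chr14:24136189-24136218, PSMG4 at chr6:3258904-3258933, PSMA4 at chr15:78540155-78540184 and PSMB4 at chr1:151399495-151399524. PSMB10 is on the minus strand at chr16:67936852-67936881, and PSMB8 at chr6:32844032-32844061.
PSME2: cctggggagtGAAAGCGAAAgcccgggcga
PSME1: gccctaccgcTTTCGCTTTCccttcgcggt
PSMG4: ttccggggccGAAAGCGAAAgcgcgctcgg
PSMA4: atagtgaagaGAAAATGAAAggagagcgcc
PSMB4: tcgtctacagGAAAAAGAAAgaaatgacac
PSMB10: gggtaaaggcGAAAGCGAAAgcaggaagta
PSMB8: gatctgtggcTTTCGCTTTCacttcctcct

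Counted from the start, with negative positions before it, the match lay at -28 to -19 in PSME2, -33 to -24 in PSMG4 and -21 to -12 in PSMB10, all with the same letters. PSME1 and PSMB8 held those letters on the opposite strand, at 5 to 14 in PSME1 and across the start of PSMB8. PSMA4 (-240 to -231) and PSMB4 (-68 to -59) held other letters in the open positions. Of the 5 members with a match, PSME2 passed in 1 contrast, and PSME1, PSMG4, PSMA4 and PSMB4 passed in none. PSMB9 had no match in its promoter window.

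A further pair of words was searched in the same promoters. The gamma-activated site, TTCNNNGAA, which reads the same on both strands, was in 6 of the 47 member promoters (12.8%) and in 7.66% of all promoters; the members were PSMA2, PSMB5, PSMC4, PSMD2, PSMD3 and PSME3. The antioxidant response element, TGACNNNGC, the site of NFE2L1 and NFE2L2 that is known to drive proteasome genes, was in 14 of 47 (29.8%) and in 13.3% of all promoters. Overlaps between matches of different words were not removed.

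The other activators and the inhibitor moved less than PSME2 but not less than PSME1. Their group means spanned 0.17 for PSME3, 0.24 for PSME4 and 0.27 for PSMF1, beside 0.16 for PSME1. The nuclear activator PSME3 and the large activator PSME4 passed in no contrast, nor did the inhibitor PSMF1. PSME4 had a difference of -0.19 with KDM5C shRNA in VHL-/- cells and passed there, at -0.35 (adjusted p = 0.0427 from limma), without replicate 2 of that group. PSMF1 had the highest value of its class in the 4 contrasts of an shRNA against scramble, at 0.23 with PBRM1 shRNA in either genotype and at 0.10 in VHL-/- and 0.26 in VHL+/+ cells with KDM5C shRNA, contrasts that share scramble arrays in pairs.

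PSMC3IP, which the rule takes by its symbol, passed with PBRM1 shRNA between the genotypes. Its signals were 7.85, 8.14 and 7.51 in VHL-/- cells and 7.58, 7.55 and 7.17 in VHL+/+ cells. Replicate 3, on chip 2, was the lowest of both groups and the groups overlapped. PSMC3IP fell by 0.40 (SE 0.10, adjusted p = 0.0403 from limma), and the adjusted p was 0.511 without the chip term. With scramble shRNA it had 7.58, 7.76 and 7.43 against 7.45, 7.39 and 7.17 (-0.25, adjusted p = 0.214), and with KDM5C shRNA 7.79, 7.83 and 7.68 against 7.77, 7.61 and 7.13 (-0.26, adjusted p = 0.198). The difference with PBRM1 shRNA failed to pass in 4 of 8 alternative fits. With 1 array left out it failed in 11 of 18 fits (adjusted p 0.0503 to 0.192 from limma). Those arrays were VHL-/- scramble replicates 2 and 3, VHL-/- PBRM1 shRNA replicates 1 and 2 and all 3 VHL+/+ scramble replicates. The others were all 3 VHL+/+ PBRM1 shRNA replicates and VHL+/+ KDM5C shRNA replicate 2.

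Core and cap were compared by the median difference of their subunits. With PBRM1 shRNA the core median was -0.07 and the cap median -0.04 in VHL-/- cells, and both were -0.05 in VHL+/+ cells. With KDM5C shRNA they were -0.06 and -0.13 in VHL-/- cells and 0.01 and -0.01 in VHL+/+ cells. In each of these contrasts core and cap lay within 0.1 of each other, and the median of all genes was 0.00.

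Between the genotypes more members lay lower than higher in VHL+/+ cells with scramble shRNA: 35 of 43 had a negative difference, 12 of 13 in the core and 14 of 17 in the cap, where 50.1% of all genes did. The core median was -0.14 and the cap median -0.09, and 1 of these members passed (PSMC1). With PBRM1 shRNA the medians were -0.09 and -0.15, with 28 of 43 members lower, and with KDM5C shRNA -0.03 and 0.03, with 19 of 43 lower. The genes of a complex share arrays and are not independent, so these counts carry no test.

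Averaged per array, the deviation of the core subunits from their own means over 18 arrays was 0.13, 0.15 and 0.01 in VHL-/- cells with scramble shRNA and -0.05, 0.01 and -0.08 in VHL+/+ cells with scramble shRNA. For the cap these values were 0.15, 0.09 and -0.00 against 0.10, -0.04 and -0.10. The core arrays of the genotypes met at 0.01 and the cap arrays overlapped. Over all 6 groups the mean of core minus cap lay between -0.06 ± 0.08 (SD, n = 3, VHL-/- with PBRM1 shRNA) and 0.04 ± 0.01 (VHL-/- with KDM5C shRNA).

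**Figure D4:**
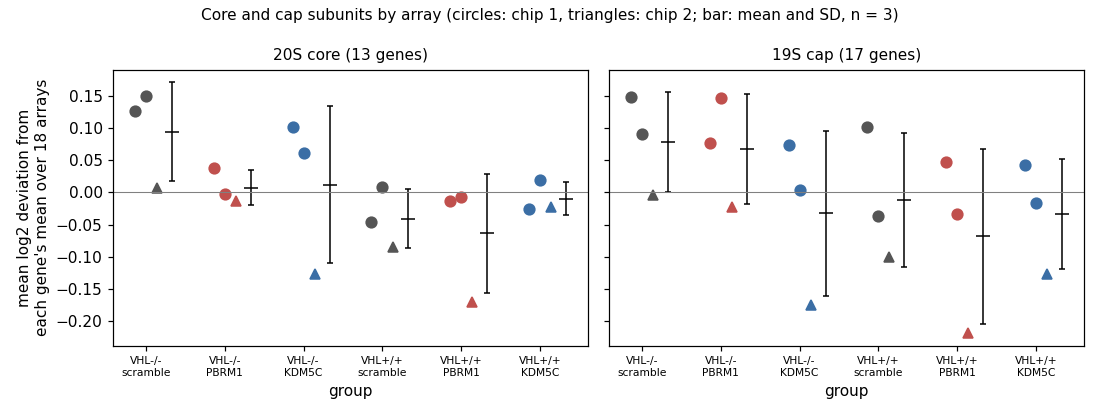
Mean log2 deviation from each gene's mean over 18 arrays (y axis) for 13 core and 17 cap subunits in each array, by group (x axis), with circles for chip 1, triangles for chip 2 and bars for the mean and SD of 3 arrays. The chip 2 array is the lowest of its group in the cap panel in all 6 groups, and no group stands clear of all others in either panel.

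More members differed between the arrays of chip 2 and chip 1, which are replicate 3 against replicates 1 and 2 in every group, than in any group contrast. The chip comparison sets 6 arrays against 12 and a group contrast 3 against 3, so these counts come from tests of unlike precision. In this comparison 15 of 43 members passed in the same limma fit, and 23.8% of all genes did. Of these, 14 were lower on chip 2, from -0.16 for PSMD7 to -0.34 for PSMD2, and PSME1 was higher, by 0.37 (adjusted p = 0.00110). By role, 8 of 17 cap subunits passed, including the ATPases PSMC3, PSMC4, PSMC5 and PSMC6, and 3 of 13 core subunits (PSMA4, PSMB2 and PSMB7). Every group holds both chips in the same proportion, 2 arrays against 1, and the chip was a term of the fit.

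**Figure D5:**
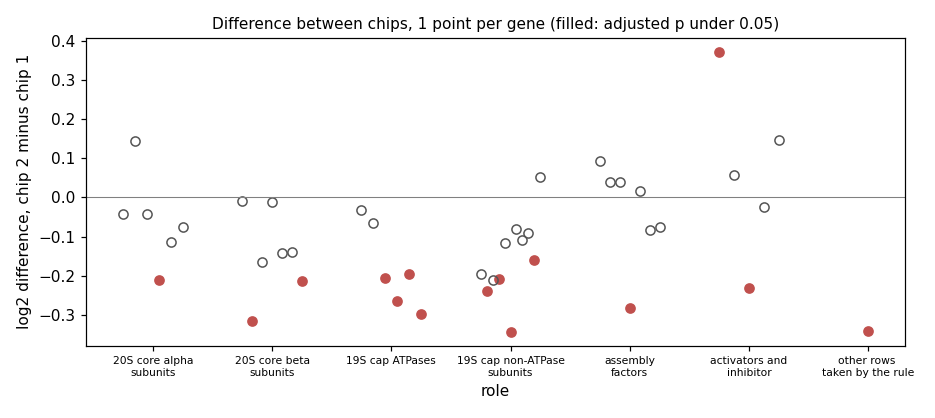
Log2 difference between chip 2 and chip 1 (y axis) for each of the 43 genes by role (x axis), filled where the adjusted p from limma was under 0.05. Of 15 filled points 14 lie below 0, and the 1 above it, at 0.37, is PSME1.

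No difference of the shRNA effects between genotypes or between targets passed. The test of the difference of the PBRM1 shRNA effect between VHL+/+ and VHL-/- cells passed for 0 of 43 members in limma (0.0% of all genes), with 1 unadjusted p under 0.05, and that of the KDM5C shRNA effect also for 0 (0.0%), with 6. PBRM1 shRNA against KDM5C shRNA gave 0 in VHL-/- cells (0.0%), with 5 unadjusted p under 0.05, and 0 in VHL+/+ cells (0.0%), with 3. The 95% intervals of the last of these lay inside 1.5-fold for all 43 members, and those of the former for 34, 32 and 42. Of 13141 genes, 553, 1014, 707 and 545 had an unadjusted p under 0.05 in limma in these tests, in the order given above.

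Of 34 other genes that regulate or serve the proteasome or ubiquitin, 30 had a row (POMP, DDI2, BAG6 and PITHD1 had none). With PBRM1 shRNA 1 of 30 passed in VHL-/- cells (5.43% of all genes did) and 0 in VHL+/+ cells (2.49%). In VHL+/+ cells 5 of 30 had an unadjusted p under 0.05 in limma, beside 2007 of 13141 genes. The 1 that passed with PBRM1 shRNA was UBE3C, a ubiquitin ligase that works on the proteasome (0.30). UBE3C also rose with KDM5C shRNA in VHL-/- cells (0.34, adjusted p = 0.00752 from limma), against the same scramble arrays. There it was the 1 of 30 that passed, where 4.78% of all genes did.

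With KDM5C shRNA in VHL+/+ cells 17 of 30 had values below 0 and 13 above, and 3 passed, where 4.19% of all genes did. These 3 fell, the proteasome-bound thioredoxin TXNL1 (-0.49, adjusted p = 0.0340), the transcription factor NFE2L2 (-0.41, adjusted p = 0.0255) and the ubiquitin shuttle RAD23B (-0.33, adjusted p = 0.0420 from limma). Between the genotypes the arsenite-inducible proteasome adaptor ZFAND2A fell with scramble (-0.39), PBRM1 (-0.46) and KDM5C shRNA (-0.36, adjusted p = 0.0139 from limma), and NFE2L2 rose with scramble shRNA (0.40, adjusted p = 0.0323). No others of the 30 passed in these 3 contrasts. Of all genes 3.2% passed with scramble, 2.37% with PBRM1 and 2.77% with KDM5C shRNA.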

How the data were processed

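Each of 6 groups had 3 Illumina bead arrays, 18 in all. The deposited values are log2 signals. The authors exported them from GenomeStudio, forced the background-corrected signals to be positive, quantile-normalized them with limma, kept probes detected at 0.05, and took the mean over the probes of a gene. Arrays give no read depth, and their number limits the precision.

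Groups were taken from the labels, and their tag ChIP was read as the chip number. limma 3.58.1 in R 4.3.3 was fitted to all arrays with group means and chip number (11 residual degrees of freedom), and p-values were adjusted by Benjamini-Hochberg over 13141 genes. Alternative fits dropped the chip term, used a replicate block instead, took only the arrays of the contrast or each chip alone, and used the table without its 25% dimmest genes, median centring, cyclic loess, and trend with robust moderation. Fold thresholds of 1.5 and 2 were applied, and each array was left out in turn. The fit was tested on simulated data. The genes named are PSME1, PSME2, the catalytic subunits, the members that passed and class extremes. Members and lists were chosen with earlier results of these data known. Promoters are those of RefSeq, GRCh38.p14, and all 43 symbols are current there. PSMD7, PSMG4 and members with a motif match were named beyond this rule, after their values had been seen. Some genes of the lists are not reported here.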

Additional observations from a re-analysis of the deposited data

How the results depend on the processing

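The counts of members that passed were small, so that 1 gene changed them. Without the chip term 0 members passed in all contrasts but KDM5C shRNA in VHL+/+ cells, where the count stayed at 1. With the replicate block in place of the chip, counts were 1 (PBRM1 shRNA in VHL-/- cells), 0 (KDM5C shRNA in VHL-/- cells), 2 (KDM5C shRNA in VHL+/+ cells, with PSMD7 added) and 1 (VHL with PBRM1 shRNA); the block changed no other count. Same-numbered arrays correlated with medians of 0.15, 0.28 and 0.52 for numbers 1, 2 and 3, the lowest pair at -0.17, and 12 of 18 arrays correlated best with their own number, so that the numbers were not taken to pair the arrays. With only the arrays of the contrast, 0 passed for PBRM1 shRNA in VHL+/+ cells, KDM5C shRNA in VHL-/- cells and VHL with scramble or PBRM1 shRNA. Within chip 1 alone, 1 passed for PBRM1 shRNA in VHL-/- cells and 0 for PBRM1 shRNA in VHL+/+ cells, KDM5C shRNA in VHL-/- cells and VHL with scramble or PBRM1 shRNA. Cyclic loess gave 2 for KDM5C shRNA in VHL+/+ cells, and trend with robust moderation 0 for KDM5C shRNA in VHL-/- cells and VHL with scramble shRNA and 1 for VHL with PBRM1 shRNA. At a fold of at least 1.5, 1 remained for PBRM1 shRNA in VHL-/- cells and 0 elsewhere, and at a fold of 2, 0 in every contrast. Leaving out 1 array gave 0 to 3 (PBRM1 shRNA in VHL-/- cells), 0 to 2 (PBRM1 shRNA in VHL+/+ cells, and KDM5C shRNA in either genotype), 0 to 1 (VHL with scramble shRNA) and 0 to 3 (VHL with PBRM1 shRNA). The causes were not tested.

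The median difference of the members moved by more than the replicate spread of 0.05 for VHL with PBRM1 shRNA, at -0.030 within chip 1 and -0.16 within chip 2, and for VHL with KDM5C shRNA, at -0.031 within chip 1. PSME1 differences that did not pass changed sign within chip 2 for KDM5C shRNA in VHL-/- (0.15) and VHL+/+ cells (-0.073) and VHL with scramble shRNA (0.0035), and within chip 1 for VHL with PBRM1 (-0.030) and KDM5C shRNA (0.071). PSME2 did so for VHL with PBRM1 shRNA within chip 2 (-0.12) and VHL with KDM5C shRNA within chip 1 (-0.068). With 1 array left out, PSME1 ranged from -0.16 to 0.025 and from -0.038 to 0.078 (KDM5C shRNA in VHL-/- and VHL+/+ cells) and from -0.13 to 0.051 (VHL with KDM5C shRNA), and PSME2 from -0.11 to 0.022 (KDM5C shRNA in VHL+/+ cells) and from -0.072 to 0.32 (VHL with KDM5C shRNA). No difference that passed changed sign in any fit.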
